A study of Mus musculus with 9 samples.

Results

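The interferon regulatory factors (Irf genes) were followed in mouse primary renal tubular epithelial cells. The genes were taken by name from a table of expression, and all 8 names looked for (Irf1, Irf2, Irf3, Irf4, Irf5, Irf7, Irf8 and Irf9) were found, among 31167 genes in all. RNA was sequenced from cells of C57BL/6 mice in 9 libraries, 3 each from Sham, H/R and EGR1OV. Sham cells were untreated, and whether they received transfection reagent is not stated. H/R cells were kept for 6 h in glucose-free medium at 1.0% oxygen and then for 18 h in complete medium under normal conditions, and EGR1OV cells had received an Egr1 overexpression plasmid. The plasmid carries a CMV promoter, which is active in most cell types, and the cells were at about 50% confluence when transfected. No library came from cells with an empty plasmid, so an effect of Egr1 and an effect of the transfected DNA cannot be told apart in EGR1OV. The labels do not say whether the 3 libraries of a group came from separate cultures, so the p-values measure the spread between these libraries, which may be technical.

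Interferon regulatory factors share a DNA-binding domain that reads repeats of the bases GAAA. Irf3 is present in most cells and is switched on by the kinases Tbk1 and Ikbke when foreign nucleic acid is sensed, after which it starts interferon beta. Irf7 is itself raised by interferon and enlarges the response, and Irf9 joins Stat2 in the complex that carries the signal of the type I interferon receptor. Irf1 activates and Irf2 mostly restrains a shared set of genes, while Irf5, Irf8 and Irf4 are best known from macrophages, dendritic cells and lymphocytes.

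Levels are given as FPKM, which are reads per kilobase of exon scaled to the depth of the library. A comparison between genes depends on the exon lengths used. Read numbers were recovered from the FPKM, and depth ran from 16183617 to 18384022 reads per library. Egr1 was read as a check of the labels and stood at 6.40 ± 0.443 FPKM in Sham and 7.88 ± 0.599 in H/R, against 42.6 ± 2.84 in EGR1OV (SD, n = 3 each). Epithelial markers of the tubule were abundant, with Krt8 at 1014 FPKM and Cdh1 at 86.2 FPKM in Sham, whereas Slc34a1 of the mature proximal tubule was at 0.00434 FPKM and Umod of the thick ascending limb was listed at 0 in every library. Leukocyte genes were also present, and Lyz2 was at 57.7 FPKM in Sham.

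Of the 8 Irf genes, 6 reached 0.5 FPKM on average across the 9 libraries and entered the test, a limma fit on log2(FPKM + 1). None of the 6 passed this filter only through EGR1OV. Irf4 and Irf8 lay below it. To be called, a gene had to change by 1.3-fold or more (1.2-fold for H/R against Sham) with an adjusted p below 0.05. In EGR1OV against Sham 5 of the 6 tested Irf genes were called, all higher, where 16.4% of all 13985 genes were called, 9.87% higher and 6.51% lower. All 6 had libraries that did not overlap between these groups, as did 55.7% of all genes. In H/R against Sham 0 of the 6 were called, where 4.25% of all genes were, 1.60% higher and 2.65% lower. In EGR1OV against H/R 4 of the 6 were called, all higher, against 18.9% of all genes, 11.9% higher and 6.94% lower. The median log2 change of the 6 genes was 1.51 in EGR1OV against Sham and 0.0088 in H/R against Sham, and over all genes these medians were 0.017 and -0.030. Of all calls in EGR1OV against Sham 60.3% were higher, a share that fell to 45.9% after quantile normalization, and in H/R against Sham it went from 37.7% to 56.5%. In EGR1OV against H/R it went from 63.2% to 42.5%.

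**Figure D1:**
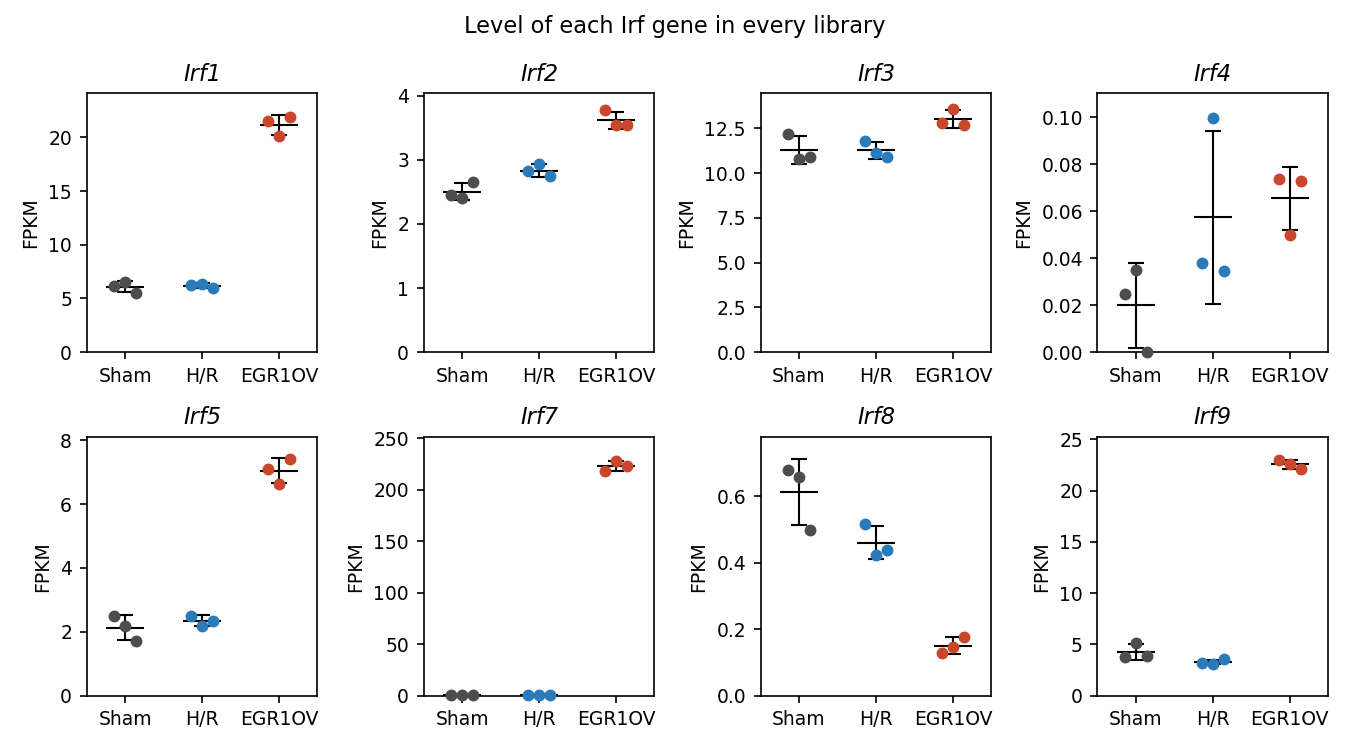
FPKM of the 8 Irf genes in every library, in 1 panel per gene with its own vertical axis from 0. Points are libraries, the horizontal bar is the mean and the whiskers are ± 1 SD (n = 3). The EGR1OV points of Irf1, Irf5, Irf7 and Irf9 stand far above the others, those of Irf8 stand below, and Irf4 is under 0.1 FPKM in all 9 libraries.

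Irf7 had the largest change of the family. It is encoded on the minus strand of chromosome 7, from 141262706 to 141266481 (ENSMUSG00000025498, protein coding, positions as in the deposited table, equal to GRCm38). The Sham libraries held 0.918, 0.942 and 0.610 FPKM and the H/R libraries 0.556, 0.605 and 0.761 FPKM. The EGR1OV libraries held 218, 228 and 223 FPKM. Sham and H/R overlapped, and each EGR1OV library lay far above both. In reads this was 38 to 62 per Sham library, 34 to 51 per H/R library and 13663 to 14184 per EGR1OV library, so the low groups rest on few reads. The mean of EGR1OV was 271 times that of Sham, and the log2 change was +6.95 (SE 0.0752, 95% interval 6.78 to 7.12, limma adjusted p 1.38e-11), the fourth largest in size among all genes tested. With limma voom on the recovered reads, where no pseudocount of 1 FPKM is added, it was +8.09. After H/R the log2 change was -0.15 (95% interval -0.32 to 0.021, limma adjusted p 0.234), and it was -0.24 without Sham replicate 3 (limma adjusted p 0.0468, under the 1.2-fold threshold). Exact two-sided permutation tests of 3 against 3 libraries cannot go below 0.1, and they gave 0.1 for EGR1OV against Sham for each of the 8 Irf genes.

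Irf9 was next in size. It lies on the plus strand of chromosome 14 from 55603571 to 55610030 (ENSMUSG00000002325). The Sham libraries were at 3.76, 5.14 and 3.90 FPKM, the H/R libraries at 3.20, 3.13 and 3.55, and the EGR1OV libraries at 23.0, 22.6 and 22.1. The EGR1OV values spread by less than 1 FPKM, and Sham replicate 2 stood apart from the other two Sham libraries. Against Sham the EGR1OV mean was 5.28 times higher, with a log2 change of +2.17 (SE 0.0881, limma adjusted p 6.33e-08). After H/R all 3 libraries lay below all 3 Sham libraries, as was the case, in either direction, for 33.6% of all genes. The log2 change was -0.29 (SE 0.0881, 95% interval -0.49 to -0.088, limma adjusted p 0.0678), which is not past the threshold. This value depends on the processing. It was past the threshold when genes under a mean of 5 FPKM were left out (adjusted p 0.0378) and with limma voom on the recovered reads (log2 change -0.37, adjusted p 0.00943). Without Sham replicate 2 it was -0.17 (adjusted p 0.0888).

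The exons of Irf9 share 123 bases on the same strand with Rnf31, which lies upstream and encodes a subunit of the linear ubiquitin ligase. Rnf31 went from 4.36 ± 0.469 FPKM in Sham to 11.1 ± 0.60 in EGR1OV (SD, n = 3, log2 change +1.18, limma adjusted p 1.25e-06). Reads in the shared bases cannot be assigned to either gene, and their part in the Irf9 value was not tested.

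Irf1 lies on the plus strand of chromosome 11 from 53770014 to 53778374 (ENSMUSG00000018899). Sham libraries were at 6.16, 6.56 and 5.55 FPKM, H/R libraries at 6.26, 6.35 and 5.93, and EGR1OV libraries at 21.5, 20.1 and 21.9. Sham and H/R overlapped, and the EGR1OV libraries stood well above both. The EGR1OV mean was 3.48 times the Sham mean (log2 change +1.65, SE 0.0568, limma adjusted p 1.94e-08). After H/R the log2 change was 0.02, with a 95% interval from -0.11 to 0.15.

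Irf2, which binds the same sites as Irf1, lies on the plus strand of chromosome 8 from 46739732 to 46847458 (ENSMUSG00000031627). Sham gave 2.45, 2.40 and 2.65 FPKM, H/R gave 2.82, 2.93 and 2.74, and EGR1OV gave 3.77, 3.54 and 3.54. The 3 groups did not overlap and stood in the order Sham, H/R, EGR1OV. Libraries of H/R and Sham did not overlap, in either direction, for 33.6% of all genes. The log2 change in EGR1OV was +0.40 (SE 0.0496, limma adjusted p 0.000156), with a ratio of means of 1.44. On the log2(FPKM + 1) scale, where the 1.3-fold threshold was applied, the change lies close to it. It fell short of that threshold after median-ratio scaling (+0.37), after quantile normalization (+0.33), without Sham replicate 2 (+0.38) and without EGR1OV replicate 1 (+0.37), with an adjusted p under 0.05 in each. After H/R the log2 change was +0.13 (SE 0.0496, limma adjusted p 0.125). EGR1OV and H/R differed by 0.27 (limma adjusted p 0.00158), under the 1.3-fold threshold. The ratio of Irf1 to Irf2 was 2.45 ± 0.326 in Sham and 2.18 ± 0.0313 in H/R, and reached 5.86 ± 0.289 in EGR1OV (SD, n = 3). The ratios in EGR1OV lay above all others (exact two-sided permutation p 0.1 against Sham).

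Irf3 was the most abundant Irf transcript of Sham cells and changed least in EGR1OV among the 6 tested. It lies on the plus strand of chromosome 7 from 44997648 to 45002848 (ENSMUSG00000003184). Sham libraries held 12.2, 10.8 and 10.9 FPKM, the H/R ones 11.8, 11.1 and 10.9, and the EGR1OV ones 12.8, 13.6 and 12.7. The EGR1OV values lay above the highest Sham value by little. The log2 change in EGR1OV was +0.19 (SE 0.0514, 95% interval 0.073 to 0.31, limma adjusted p 0.0140), a ratio of means of 1.15, and the gene was not called. After quantile normalization the change was 0.081 (adjusted p 0.215). In H/R the log2 change was -0.0023, with a 95% interval from -0.12 to 0.11. The ratio of Irf7 to Irf3 was 0.0727 ± 0.0155 in Sham and 0.0571 ± 0.0117 in H/R, and reached 17.1 ± 0.440 in EGR1OV (SD, n = 3), so Irf7 stood below Irf3 in Sham and H/R and above it in EGR1OV.

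Irf5 lies on the plus strand of chromosome 6 from 29526625 to 29541871 (ENSMUSG00000029771). Sham libraries held 2.49, 2.19 and 1.71 FPKM, H/R libraries 2.51, 2.17 and 2.35, and EGR1OV libraries 7.09, 6.63 and 7.40. Sham and H/R overlapped, and the lowest EGR1OV library was above the highest of them. The EGR1OV mean was 3.31 times the Sham mean (log2 change +1.37, SE 0.0895, limma adjusted p 1.94e-06), and the change after H/R was 0.10 (95% interval -0.10 to 0.30). Its exons share 411 bases with Tnpo3 on the other strand, a nuclear import gene, and whether the reads kept their strand is not stated. Tnpo3 was at 6.90 ± 0.156 FPKM in Sham and 6.13 ± 0.449 in EGR1OV (SD, n = 3) and was not called. For Irf1, Irf3 and Irf7 the bases shared with genes on the other strand were 135, 88 and 45, and of those genes Bcl2l12 and Phrf1 were not called, while Gm17334, beside Irf1, was below the filter.

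**Figure D2:**
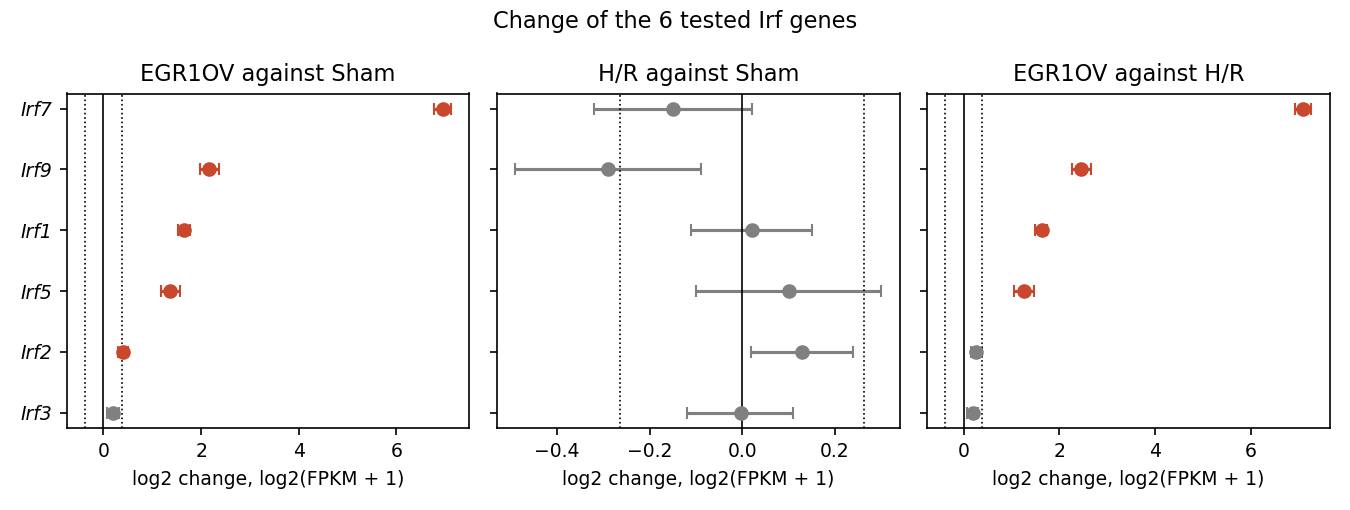
Log2 change on the log2(FPKM + 1) scale of the 6 tested Irf genes in the 3 comparisons, with the horizontal axis of H/R against Sham enlarged. Points are limma estimates with 95% intervals, red where called, and dotted lines mark the fold thresholds. Irf7 stands at 6.95 against Sham, Irf9, Irf1 and Irf5 follow between 1.37 and 2.17, and after H/R no gene is called.

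Irf8 and Irf4, the factors of blood cells, were the low members. Irf8 lies on the plus strand of chromosome 8 from 120736358 to 120756694 (ENSMUSG00000041515). Sham libraries had 0.681, 0.659 and 0.498 FPKM, H/R libraries 0.517, 0.424 and 0.440, and EGR1OV libraries 0.128, 0.147 and 0.177. Every EGR1OV library lay below every other library, and Sham and H/R overlapped. These values rest on 58 to 81 reads per Sham library, 55 to 59 per H/R library and 15 to 21 per EGR1OV library. The EGR1OV mean was 0.246 times the Sham mean. Irf8 was below the filter and so has no test in the fit reported here. With no filter on low values its log2 change was -0.49 (SE 0.0584, limma adjusted p 0.000529), and with limma voom on the recovered reads and no filter it was -1.99 (SE 0.256, adjusted p 5.33e-06). After H/R the latter gave -0.41 (adjusted p 0.242).

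Irf4 lies on the plus strand of chromosome 13 from 30749226 to 30766976 (ENSMUSG00000021356). It had 2, 3 and 0 reads in Sham, 3, 9 and 3 in H/R, and 6, 4 and 6 in EGR1OV. In Sham this is at or under a floor of 3 reads per library, and no difference between groups was detectable at this depth (voom with no filter, adjusted p 0.0579 for EGR1OV and 0.256 for H/R against Sham).

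In EGR1OV most leukocyte genes were lower, as Irf8 was. Of 15 listed, 13 were tested in EGR1OV against Sham, 11 were called lower and 1, Cd14, higher, and in H/R against Sham 2 were called lower. Their summed level was 173 to 183 FPKM in Sham, 151 to 160 in H/R and 54.5 to 62.8 in EGR1OV. Relative to its Sham mean Irf8 stood at 24.6% in EGR1OV. The genes set beside it here were chosen after their values were seen. Spi1, whose protein binds DNA together with Irf8 and Irf4, stood at 28.5%, and Csf1r, the receptor that macrophages need to survive, at 31.4%. Lyz2 and C1qa were lower still, at 9.48% and 14.5%. Other listed leukocyte genes stood nearer to Sham, with Adgre1 at 50.7%, Cd68 at 54.2%, Fcer1g at 63.4%, Cd74 at 66.3% and Aif1, which was not called, at 75.0%. After H/R Irf8 stood at 75.1% of its Sham mean, with overlap, while Spi1 stood at 99.3%, Csf1r at 96.1% and Ptprc at 105%, and the 15 leukocyte genes ran from 69.6% (Adgre1) to 120% (Itgam). Irf5, also a macrophage gene, stood at 331% and Cd14 at 329%. In bulk RNA, fewer cells of a type and less RNA per cell cannot be told apart, and the part of the leukocyte content in the Irf8 and Irf5 values was not tested. Among 9 lymphoid and dendritic cell genes in the table, none passed the filter, and their summed level was at most 0.280 FPKM in any library. Of 10 tested tubule genes 4 were called lower and 1 higher in EGR1OV against Sham, with sums of 1930 to 1966 FPKM in Sham and 1271 to 1377 in EGR1OV. Of 5 tested endothelial genes 1 was called lower, and of 4 tested fibroblast genes 1 was called higher. Over all genes 6.51% were called lower and 9.87% higher in EGR1OV against Sham, and 2.65% lower in H/R against Sham. A single call among 4 or 5 genes is therefore not read as a change of these cell types. By limma all 5 endothelial genes had an unadjusted p under 0.05, with a median log2 change of -0.28. Voom called 3 of them, and 3011 of 13967 genes in all. Their sums were 11.1 to 12 FPKM in Sham and 8.29 to 8.68 in EGR1OV. After H/R 2 of the 4 fibroblast genes were called higher, against 1.60% of all genes. Whether the content of these cells differed was not tested.

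**Figure D3:**
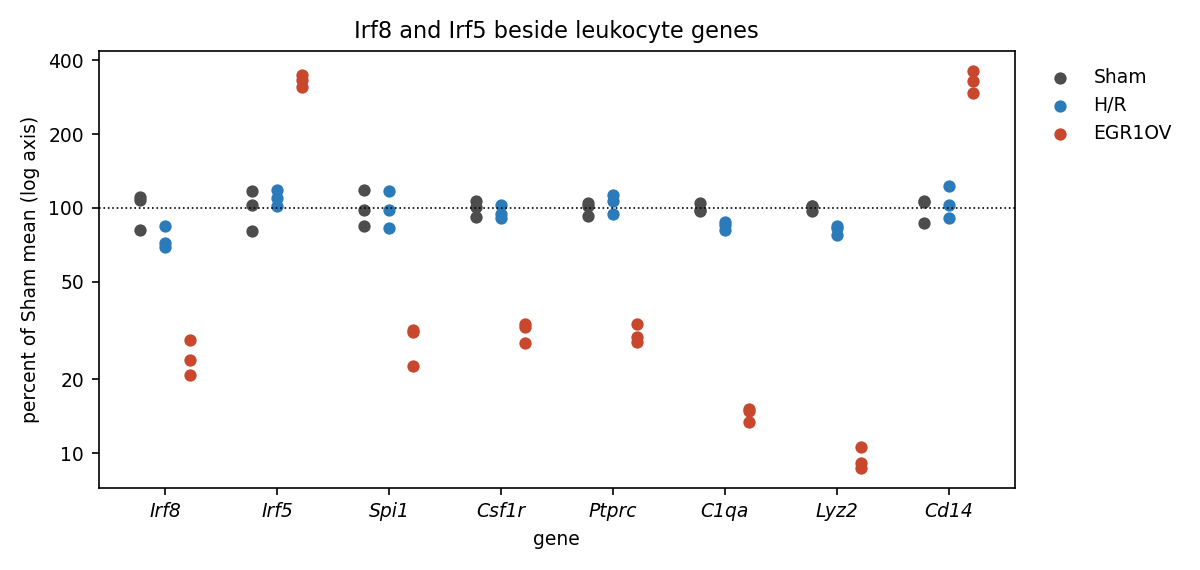
Level of Irf8, Irf5 and 6 leukocyte genes in every library as a percentage of the Sham mean of the same gene, on a log axis. Points are libraries. In EGR1OV the points of Irf8 lie from 20.9 to 28.9%, near those of Spi1, Csf1r and Ptprc, while Irf5 and Cd14 lie above 290%.

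The order of the levels within the family differed between groups. In Sham it was Irf3 at 11.3 FPKM, Irf1 at 6.09, Irf9 at 4.27, Irf2 at 2.5, Irf5 at 2.13, Irf7 at 0.823, Irf8 at 0.613 and Irf4 at 0.020. Irf2 and Irf5 overlapped in their libraries, as did Irf7 and Irf8, and the other neighbours did not. H/R had the same order with no overlap between neighbours. In EGR1OV it was Irf7, Irf9, Irf1, Irf3, Irf5, Irf2, Irf8 and Irf4, again with no overlap. Irf9 and Irf1 were close there, at 22.6 ± 0.421 and 21.2 ± 0.914 FPKM (SD, n = 3). The exon length used for Irf7 was 3776 bases, which is its whole span from start to end, so its level per length is understated beside genes whose introns are left out. The lengths used for Irf9, 5386 bases, and for Irf3, 3442 bases, also take up much of their spans. The order between genes therefore depends on the lengths used.

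Summed over the 8 genes, the Irf transcripts came to 27.8 ± 1.70 FPKM in Sham and 27.1 ± 0.559 in H/R, but to 291 ± 4.23 in EGR1OV (SD, n = 3). Without Irf7 the sums were 26.9 ± 1.51, 26.4 ± 0.646 and 67.6 ± 0.888. Irf7 made up 2.95 ± 0.505% of the sum in Sham and 76.7 ± 0.634% in EGR1OV, and Irf3 went from 40.8 ± 2.69% to 4.48 ± 0.128%.

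**Figure D4:**
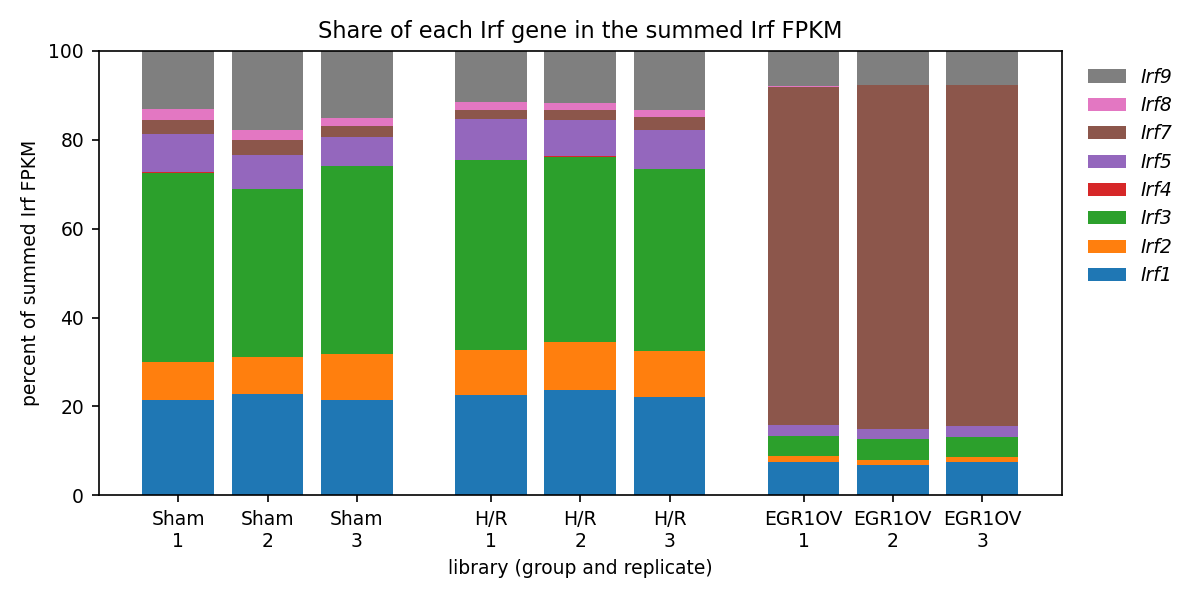
Share of each Irf gene in the summed FPKM of the 8 genes, in percent, as 1 stacked bar per library. Sham and H/R bars are mostly Irf3, Irf1 and Irf9, and the EGR1OV bars are 76.7% Irf7 on average.

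To show what stands before start sites of genes that rose in EGR1OV, the 250 bases upstream of a RefSeq start were read for Irf7, Irf1, Irf2 and Irf5 (GRCm38.p6). A promoter window was found for each of the 8 genes, and where RefSeq gave several starts the one most upstream is shown. Capitals mark matches on either strand to a pair of GAAA repeats (GAAA, any 2 bases, GAAA), to the Stat element (TTCNNNGAA) or to an Egr element (GCGNGGGCG). Irf7 is at chr7:141266425-141266674 on the minus strand, Irf1 at chr11:53769764-53770013, Irf2 at chr8:46739495-46739744 and Irf5 at chr6:29526375-29526624, the latter 3 on the plus strand. Each sequence is written in the direction of its gene.
Irf7: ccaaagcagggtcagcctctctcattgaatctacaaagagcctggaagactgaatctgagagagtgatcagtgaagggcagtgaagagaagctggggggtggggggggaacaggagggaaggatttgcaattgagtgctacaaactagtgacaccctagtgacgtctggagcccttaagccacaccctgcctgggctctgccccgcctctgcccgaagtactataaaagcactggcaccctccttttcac
Irf1: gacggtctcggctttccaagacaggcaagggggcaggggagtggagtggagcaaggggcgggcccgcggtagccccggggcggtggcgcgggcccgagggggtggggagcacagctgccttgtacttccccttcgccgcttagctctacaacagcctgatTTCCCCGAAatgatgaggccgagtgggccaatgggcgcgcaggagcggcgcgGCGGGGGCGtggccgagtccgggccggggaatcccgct
Irf2: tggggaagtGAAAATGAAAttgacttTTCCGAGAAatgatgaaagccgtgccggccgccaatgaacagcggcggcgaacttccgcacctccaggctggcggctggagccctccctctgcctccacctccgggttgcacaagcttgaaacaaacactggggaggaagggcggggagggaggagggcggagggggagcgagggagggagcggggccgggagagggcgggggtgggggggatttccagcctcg
Irf5: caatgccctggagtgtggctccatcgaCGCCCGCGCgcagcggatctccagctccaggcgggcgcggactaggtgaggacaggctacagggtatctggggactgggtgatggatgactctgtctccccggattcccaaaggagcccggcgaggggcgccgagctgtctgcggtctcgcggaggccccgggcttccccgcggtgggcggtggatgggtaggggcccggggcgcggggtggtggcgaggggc

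In Irf1 the capitals are a Stat element at 90 to 82 bases before the start and an Egr element at 38 to 30 bases before it. In Irf2 they are a GAAA pair followed by a Stat element, and in Irf5 an Egr element on the other strand. Irf5 has a further Egr match on its own strand, 20 to 28 bases after the start and so outside the printed stretch. From 250 bases before to 50 after the start, Irf7 holds none of these motifs, nor does Irf9, which also rose, in either of its 2 windows. The Irf9 windows begin at chr14:55603735 and chr14:55604329, inside the gene, whose first base in the deposited positions is 55603571. The bases before that position were not read, so whether they hold these motifs was not tested. Part of the Irf7 window, chr7:141266425-141266674, also lies inside its gene, which on the minus strand starts at 141266481 in the deposited positions. Fewer than 250 bases before that deposited start of Irf7 were therefore read. Irf3 and Irf4 hold none, and Irf8, which was lower in EGR1OV, holds 2 Stat elements. Of 32851 promoter windows of that length, 3.44% held the GAAA pair, 8.30% the Stat element and 5.55% the Egr element. These matches describe letters and are not measured binding sites.

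Genes around the Irf factors were read from 7 lists that follow their roles. In EGR1OV against Sham 60 of their 86 distinct tested genes were called, or 69.8%, some of which passed the filter only through EGR1OV. Of all genes 16.4% were called there, 9.87% higher and 6.51% lower. Interferons are the ligands at the end of the Irf3 and Irf7 path. Of 21 listed, 14 were in the table, and 1, Ifnb1, passed the filter, only through EGR1OV. All 6 libraries of Sham and H/R list it at 0 reads. Taken alone, a 0 in a single library allows an expected number of up to 3 reads. The EGR1OV libraries held 3.05, 3.02 and 1.90 FPKM, from 24 to 38 reads. Ifna4 had 3 to 6 reads per EGR1OV library and 0 in the others.

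Of 20 tested sensors, adaptors and kinases that lead to Irf3, Irf5 and Irf7, 9 rose in EGR1OV, 0 fell, and the median log2 change was 0.28. The largest rises were those of Zbp1, a sensor of Z-form nucleic acid, from 0.180 ± 0.0380 to 25.7 ± 1.25 FPKM (log2 change +4.50), and of Dhx58, a helicase of the RIG-I family, from 0.388 ± 0.0489 to 25.6 ± 1.26 FPKM (SD, n = 3, log2 change +4.26). Both passed the filter only through EGR1OV. The kinases of Irf3, named for that role after their values were seen, rose as well. Ikbke went from 2.82 ± 0.330 to 8.40 ± 0.394 FPKM, and Tbk1 from 12.6 ± 0.390 to 17.1 ± 0.560 FPKM (SD, n = 3, log2 changes +1.3 and +0.41, limma adjusted p 2.3e-07 and 1.28e-05).

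Of the 11 receptors, kinases and Stat partners of Irf9, 6 rose and 0 fell. Stat2 went from 3.20, 3.77 and 2.71 FPKM in Sham to 71.0, 73.3 and 66.4 in EGR1OV (log2 change +4.08, limma adjusted p 4.92e-10). The log2 change of Irf9, given above as +2.17, was smaller. The ratio of Irf9 to Stat2 was 1.33 ± 0.137 in Sham and 1.19 ± 0.163 in H/R, and came to 0.322 ± 0.0130 in EGR1OV (SD, n = 3). In FPKM Irf9 thus stood above Stat2 in Sham and below it in EGR1OV, and the ratios did not overlap (exact two-sided permutation p 0.1). Which gene stands above the other depends on the exon lengths used, whereas the fall of the ratio between groups does not.

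All 20 listed targets of Irf3, Irf7 or the Irf9 complex rose in EGR1OV, and the median was 5.24 on the log2 scale. The chemokine Ccl5 (+7.65) and the ubiquitin-like modifier Isg15 (+7.29) led them. Of the 18 tested targets of Irf1 or Irf2, 16 rose and 0 fell, with a median of 2.72. The guanylate-binding proteins Gbp3, from 1.3 ± 0.125 to 138 ± 2.67 FPKM, and Gbp2, from 2.60 ± 0.0177 to 129 ± 4.67 FPKM, rose most (SD, n = 3, log2 changes +5.92 and +5.18). Of these lists, 6 and 4 genes passed the filter only through EGR1OV and so had to differ there. The lists were written with earlier results of these data known, so the counts are no independent evidence of a direction.

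Of 13 inhibitors and co-repressors of the pathway, 8 rose in EGR1OV and 0 fell. Usp18, which removes Isg15 and blocks the interferon receptor, went from 1.3 ± 0.553 to 169 ± 4.24 FPKM (SD, n = 3, log2 change +6.23). Trim30a followed with +5.17. Usp18 is also among the targets above, and Socs1, a feedback inhibitor of Jak kinases, stands among the Irf1 targets too. Of the partners of Irf4 and Irf8 in blood cells 5 were tested, and 2 fell, Spi1 by 0.78 and Id2 by 0.41 on the log2 scale (limma adjusted p 0.000201 and 0.00237).

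After H/R 3 of the 86 distinct genes tested in the 7 lists were called, or 3.49%, close to the 4.25% of all genes. Cxcl10, a chemokine target, went from 6.13 ± 0.424 to 9.18 ± 0.517 FPKM (SD, n = 3, log2 change +0.51, limma adjusted p 0.000515). Gbp2 rose by 0.27 and Tap1, a peptide transporter for MHC class I, fell by 0.26 on the log2 scale (limma adjusted p 0.00822 and 0.0108). No sensor, adaptor or kinase of the 20 tested, and no receptor or Stat partner of the 11, was called by limma after H/R, nor by voom on recovered reads. Over the 7 lists voom called 4 genes, the 3 above and Socs1. In each of the lists of 20 sensors, adaptors and kinases and of 11 receptors and partners, 3 had an unadjusted p under 0.05. For the 6 Irf genes that number was 2 (Irf2 and Irf9), and voom called 1 (Irf9). The share of all genes at that unadjusted p was not counted, so these numbers are not read as a response. With no fold threshold 1635 of the 13985 genes had an adjusted p under 0.05 after H/R.

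**Figure D5:**
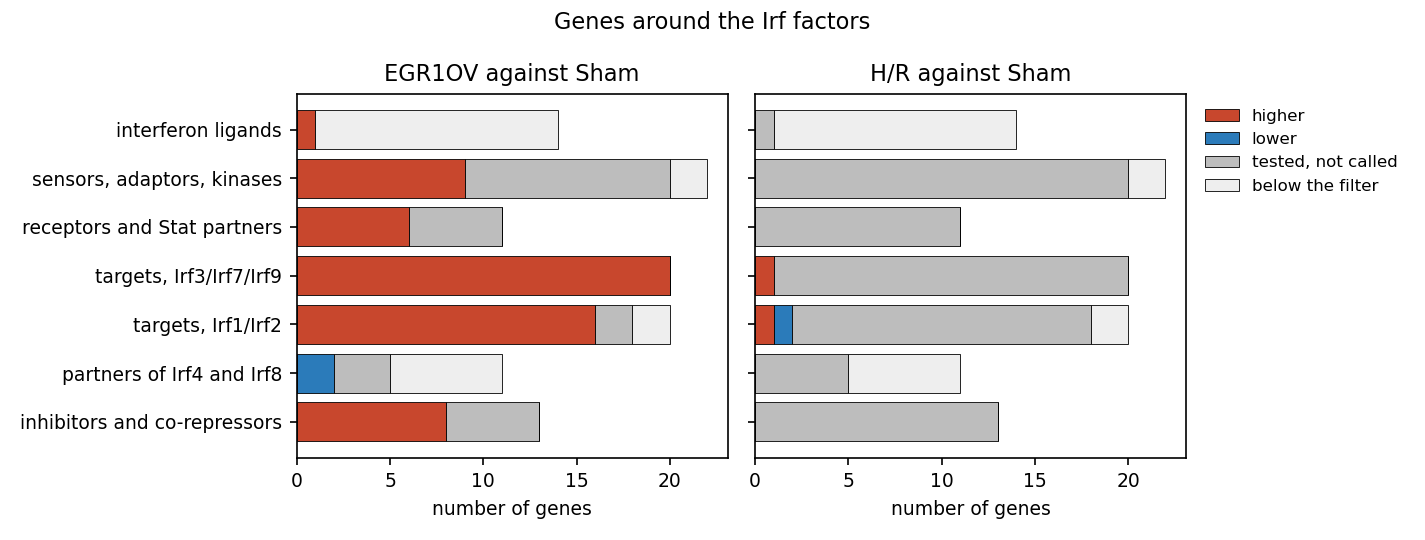
Number of genes in each of the 7 lists that were called higher (red), called lower (blue), tested and not called (grey) or below the filter (light), in EGR1OV and in H/R, each set against Sham. In EGR1OV all 20 targets of Irf3, Irf7 or the Irf9 complex are red, and after H/R 3 genes are called.

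EGR1OV and H/R were also set against each other, as a test of whether the 2 treatments differed in the Irf genes. Irf7 was higher in EGR1OV by 7.09, Irf9 by 2.46, Irf1 by 1.63 and Irf5 by 1.27 on the log2 scale (limma adjusted p at most 3.07e-06). Irf2 and Irf3 were higher by 0.27 and 0.19 and were not called. For all 6 the EGR1OV and H/R libraries did not overlap, as held for 58.6% of all genes. The comparisons with Sham share the Sham libraries.

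Likeness of pattern was described by Pearson's r of log2(FPKM + 1) over the 9 libraries, among 7587 or 7588 genes that averaged 5 FPKM or more. The points fall into groups, so r mostly follows the step from the other groups to EGR1OV. Some genes reached that mean only through EGR1OV, among them Oas3, Gm43197, Ifit3b, Oasl1, Slfn9 and Clec2d. Such genes had to be higher in EGR1OV, so their high r with a risen Irf gene was in part built in. Irf7 was most like Tor3a, Oas3 and Gm43197 (r = 1.000 each when rounded). Irf9 was most like Slfn9 (0.999), Eif2ak2 and Parp3 (0.998 each), and Irf1 was most like Ifit3b (0.999), Oasl1 and Stk38l (0.998 each). Irf5 was most like Larp1 (0.995), Clec2d (0.994) and Enpp4 (0.993). Irf2 was most like Tmem176a (0.997), Mmp9 (0.992) and Zfp777 (0.986). For Irf3 the highest values were lower, 0.976 for Map3k4, 0.971 for Abcf1 and 0.970 for Man2c1. At r of at least 0.95 stood 880 genes for Irf7, 841 for Irf9, 831 for Irf1, 704 for Irf5, 140 for Irf2 and 11 for Irf3. The genes that reached the mean only through EGR1OV were not left out of these counts.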

How the data were processed

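RNA was sequenced from 9 libraries of mouse renal tubular epithelial cells. The deposited table holds FPKM per gene, calculated by the authors. The submitters' processing notes name Bowtie2 2.2.3, HISAT2 2.1.0 and TopHat2 and the build mm9, but the table's positions equal GENCODE M21 (GRCm38) for 94.8% of genes and for all 8 Irf genes. The counting tool, its strand setting and the annotation are not given in the sources used here. Whole reads were recovered from the FPKM with GENCODE exon lengths, and of 162883 values checked 94.0% lay within 0.02 of a whole number. Depth was 16183617 to 18384022 reads, and intervals and floors drawn from reads cover counting error only. In the symbol column 26 names turned into dates were restored.

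The 13985 genes that averaged 0.5 FPKM or more were fitted over all 9 libraries with limma 3.58.1 (lmFit, eBayes with trend, R 4.3.3) on log2(FPKM + 1), with Benjamini-Hochberg adjustment over all genes tested. Fold changes on this scale understate the change of low genes. The fold thresholds follow the study for the comparisons with Sham, and 1.3-fold was taken for EGR1OV against H/R. Single values were compared by exact two-sided permutation tests. All 8 Irf genes are named, with the 2 genes of largest change in each list, the 3 genes most alike in pattern, and genes said in the text to be chosen after their values were seen. A gene that this rule would also name is not reported here. The Irf genes and the lists were chosen with earlier results of these data known. Alternatives were another pseudocount, other filters, fold thresholds and scalings, a replicate block, no trend, fits of the compared groups alone, voom on the recovered reads, and each library left out.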

Additional observations from a re-analysis of the deposited data

How the results depend on the processing

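With genes under a mean of 5 FPKM left out, 3 Irf genes were called in EGR1OV against Sham (of 4 tested) and 1 (Irf9) in H/R against Sham. The voom fit on recovered reads also called 1 Irf gene after H/R, with the filter or without it (the latter chosen after seeing the data). Leaving out 1 library at a time gave 4 to 5 Irf genes in EGR1OV against Sham, 0 after H/R and 4 in EGR1OV against H/R. The log2 change of Irf3 after H/R, -0.0023, changed sign after median-ratio scaling (0.036) and quantile normalization (0.018) and, with single libraries left out, ran from -0.033 to 0.049 (0.049 without Sham replicate 1, 0.0054 without H/R replicate 2, 0.021 without H/R replicate 3). That of Irf1 ran from -0.037 to 0.068 and was -0.037 without Sham replicate 3. The cause was not tested.

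No clear pairing by replicate number was seen. Same-numbered libraries deviated from their group means with correlations from -0.195 to 0.263, and not every library was most like its own number. With 3 libraries per group this cannot exclude a pairing, which the labels do not state. With the replicate number as a block 5, 0 and 4 Irf genes were called, as without it, and 2309, 516 and 2654 of all genes. All-gene counts moved by over 1.5 times from 2291, 594 and 2641 with a mean of at least 5 FPKM (1315, 372 and 1520), without a fold threshold (6417, 1635 and 7135), with one of 2-fold (484, 11 and 489), with voom after H/R (1001), and with unfiltered voom in both EGR1OV comparisons (3806 and 4477). Depth limits Irf4 most, with at most 9 reads in a library.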
